A study of Mus musculus with 28 samples.

Results

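The Dlk1-Dio3 cluster is an imprinted domain of mouse chromosome 12. The values below are those of array probes chosen for it, in phenobarbital-exposed and control livers. The probes were those whose RefSeq transcript maps to Meg3, Rian, Mirg or Dlk1, together with every probe that the scanner files name by a chromosome 12 interval between positions 109400000 and 111100000 of build mm9. This gave 134 of the 55681 distinct probes of the array: 3 for Meg3, 1 for Mirg, 2 for Dlk1 and 128 interval probes, out of 16181 interval probes on the whole array. No probe carried a RefSeq transcript of Rian, so Rian was not measured under its own name. The interval probes covered 23 intervals, 7 of them on both strands, with 70 probes named forward and 58 named reverse. The files pair no gene with an interval, and the gene table used here is of another build, so intervals are given by position alone. The chosen probes are called cluster probes below, although part of the window may lie outside the imprinted domain.

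The livers came from male B6C3F1 mice, labelled as 42 days old and kept as formalin-fixed, paraffin-embedded blocks for 16 years. Phenobarbital, a sedative that switches on hepatic drug metabolism through the nuclear receptor CAR, was given to 3 mice at 0.05% in drinking water for about 4 weeks, while 3 control mice drank water alone. Amplified cDNA of the same 6 mice was hybridized in 4 sets, each on a slide of its own: the one-colour sets had 6 arrays for each cDNA input, 1X or 1.5X, and the two-colour sets had 8 for either input, of which 6 were used at 1X. The mouse was the replicate (n = 3 per exposure), and precision is limited by how few mice there are.

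Phenobarbital is known to cause liver tumours in mice, and transcripts of this cluster have been described as markers of that exposure in fresh mouse liver. Meg3, Rian and Mirg are long noncoding RNAs transcribed in one direction from the maternal chromosome, while Dlk1, which encodes a transmembrane protein related to Notch ligands and active in fetal liver, is transcribed from the paternal one. Rian holds many small nucleolar RNAs, and Mirg and the neighbouring DNA hold a large cluster of microRNAs. In phenobarbital-treated mouse liver these noncoding RNAs have been located to pericentral hepatocytes.

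The sequence around the first Meg3 start site, 250 bases before it and 50 from it on, is shown because the 3 Meg3 probes carry the main result for a named gene. In RefSeq (GRCm38.p6) it lies at chr12:109540746-109541045 on the plus strand, and the capitals mark the palindrome TGACGTCA, a cyclic AMP response element, and the letters TATAAA, found on both strands with overlap.

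Meg3 promoter: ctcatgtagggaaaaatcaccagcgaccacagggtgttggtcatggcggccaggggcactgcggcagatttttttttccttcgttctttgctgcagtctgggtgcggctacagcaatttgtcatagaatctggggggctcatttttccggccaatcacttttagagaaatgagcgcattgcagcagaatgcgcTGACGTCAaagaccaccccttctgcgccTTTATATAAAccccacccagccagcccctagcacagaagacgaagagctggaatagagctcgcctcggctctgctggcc

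The palindrome begins 57 bases before the annotated start and TATAAA 25 bases before it on the gene's strand. Of 32851 RefSeq promoter windows of the same length, 1.79% held TGACGTCA and 13.6% held TATAAA on either strand. Neither motif was found in the windows of Rian, Mirg and Dlk1, nor in that of the second Meg3 start. The Meg3 window held 13 CG dinucleotides, against a median of 7 over all windows.

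RefSeq places 114 mature microRNA entries in the cluster, of which 3 lie within Meg3, 29 within Rtl1, 6 within Rian, 19 within Mirg and 57 outside them. One of each is printed below, with the seed (bases 2 to 8) in capitals. Entries were placed by position alone, without regard to strand, so a gene named beside one need not carry it in its transcript. The arrays hold no value for any mature microRNA in the results below. Of 113 distinct mature names, 18 share a seed with another microRNA of the cluster, in 9 pairs, and the 5 printed seeds differ from each other.

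mmu-miR-770-3p, within Meg3: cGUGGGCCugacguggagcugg
mmu-miR-127-3p, within Rtl1: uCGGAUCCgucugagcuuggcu
mmu-miR-370-3p, within Rian: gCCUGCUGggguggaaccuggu
mmu-miR-379-5p, upstream of Mirg: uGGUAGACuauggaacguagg
mmu-miR-410-3p, within Mirg: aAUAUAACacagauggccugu

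Cyp2b10 checked the exposure labels. Over both one-colour inputs, Cyp2b10, the main phenobarbital-induced cytochrome P450 of mouse liver, was well above background on 6 of 6 phenobarbital and 0 of 6 control arrays and rose at least 23.6-fold, with a limma adjusted p of 0.000138. That bound sets the mean of the phenobarbital mice against the control arrays raised, where lower, to the lowest level that each array called well above background, and the bounds below are formed in the same way. All 7 hepatocyte markers examined were well above background on all 12 one-colour arrays. Exocrine and endocrine pancreas markers were also present: 7 of 10 were tested over both inputs, none passed the test, and their summed level at 1X, as a percentage of each array's 75th percentile, was 6948, 14036 and 39757 in phenobarbital mice 1 to 3 and 9501, 43879 and 45809 in control mice 1 to 3. Of the defining islet genes, Ins2 was well above background on 6 of 6 phenobarbital and 5 of 6 control arrays, Ins1 on 2 and 4, Gcg on 3 and 3, and Iapp on 0 and 2. Their part in the values of Meg3, which is known from pancreatic islets, was not tested. Bulk RNA does not separate fewer cells of a type from less RNA per cell.

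No cluster probe passed the test in any comparison. In the one-colour 1X set 57 of the 134 were tested, meaning that every array of at least 1 exposure group called them well above background, and limma called none, against 0.138% of all 24627 probes tested. At an unadjusted p under 0.05 there were 2 cluster probes, 1 higher and 1 lower, and 2152 probes of the whole array, or 8.74%. The median log2 difference of phenobarbital over control was 0.01 over the 57 cluster probes and 0.01 over all probes tested. The exposure groups did not overlap in 6 of the 57, 3 higher and 3 lower, against 14.2% of all probes tested with complete values.

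**Figure D1:**
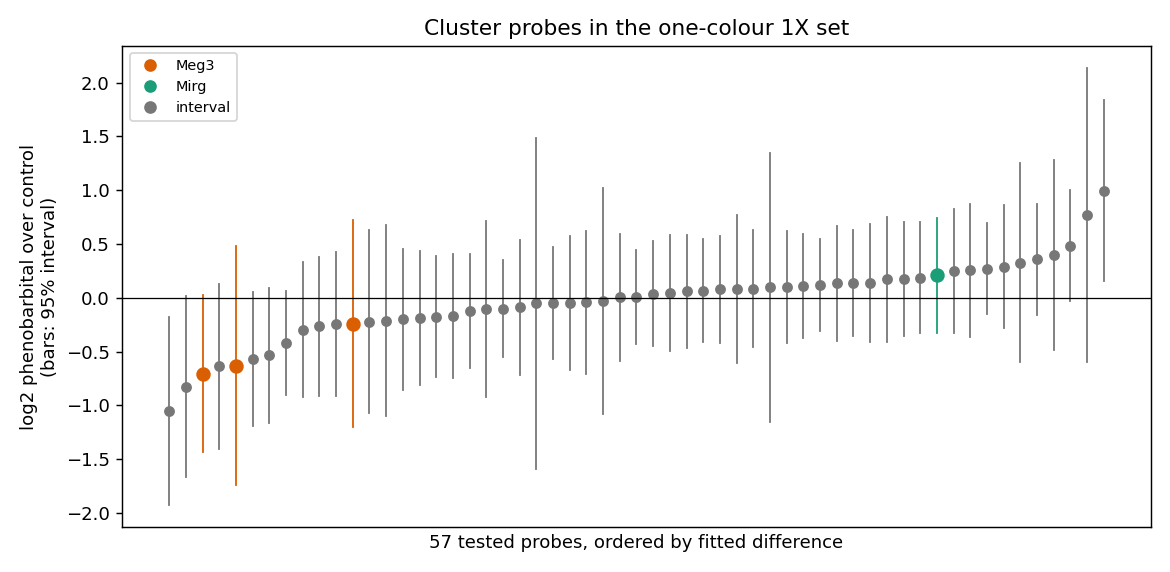
Fitted log2 difference of phenobarbital over control (vertical axis) for the 57 cluster probes tested in the one-colour 1X set, ordered by size, with 95% intervals as bars. The values run from -1.05, at a probe detected in no phenobarbital mouse, to 1.00, and the 3 Meg3 probes lie below 0 while the Mirg probe lies at 0.21. Of the Meg3 probes, A_55_P2033407 and A_52_P196568 passed the filter only through the control group.

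Meg3 is the maternally expressed transcript that opens the noncoding arm of the cluster. Probe A_51_P455997 was well above background on all 6 arrays at 1X, with 13.9, 14.4 and 5.03% of the array's 75th percentile in phenobarbital mice 1 to 3 and 13.9, 12.9 and 9.34% in control mice 1 to 3. Phenobarbital mouse 3 was the lowest of the 6, and the other 5 mice lay within a narrow range, so the groups overlapped. The log2 difference was -0.24 ± 0.42 (SE), with a 95% interval of -1.20 to 0.72 and a limma adjusted p of 0.931. Without phenobarbital mouse 3 it became 0.26, and the sign of the difference rests on that animal.

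The second Meg3 probe, A_55_P2033407, had 4.90, 6.32 and 6.16% in phenobarbital mice 1 to 3 and 8.74, 14.8 and 6.42% in control mice 1 to 3. It was well above background in 2 of the phenobarbital and all 3 control mice, so it passed the filter only through the control group. Every phenobarbital value lay below every control value, although phenobarbital mouse 2 and control mouse 3 nearly met. In this set the groups did not overlap, in either direction, at 14.2% of all probes tested with complete values. The fitted log2 difference takes in the undetected phenobarbital spot. It was -0.70 ± 0.32 (SE), with a 95% interval of -1.44 to 0.03, an unadjusted p of 0.0572 and a limma adjusted p of 0.59. Over the alternatives run, each mouse left out in turn included, it ranged from -0.98 to -0.32 and was never called.

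The third probe, A_52_P196568, which carries another Meg3 transcript, had 14.3, 8.40 and 3.25% in phenobarbital mice 1 to 3 and 10.5, 10.8 and 12.7% in control mice 1 to 3. The phenobarbital mice spread on both sides of a tight control group, with phenobarbital mouse 3 not well above background. The probe therefore passed the filter only through the control group, and the fit takes in that undetected spot. The difference was -0.63 ± 0.48 (log2, SE), with a 95% interval of -1.74 to 0.48 and a limma adjusted p of 0.793. On a linear scale the interval runs from 0.299 to 1.40 times the control level. Without phenobarbital mouse 3 the log2 difference was -0.05, and its size rests on that animal.

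At 1.5X the same Meg3 probes were mostly at background, and none met the filter. A_51_P455997 had 3.71, 2.53 and 10.5% in phenobarbital mice 1 to 3 and 3.93, 0.971 and 2.55% in control mice 1 to 3, well above background in phenobarbital mice 1 and 3 alone. Phenobarbital mouse 3, the lowest of the 6 at 1X for this probe, was the highest at 1.5X. A_55_P2033407 was well above background in phenobarbital mice 1 and 3 and in control mouse 2, and A_52_P196568 in no mouse.

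**Figure D2:**
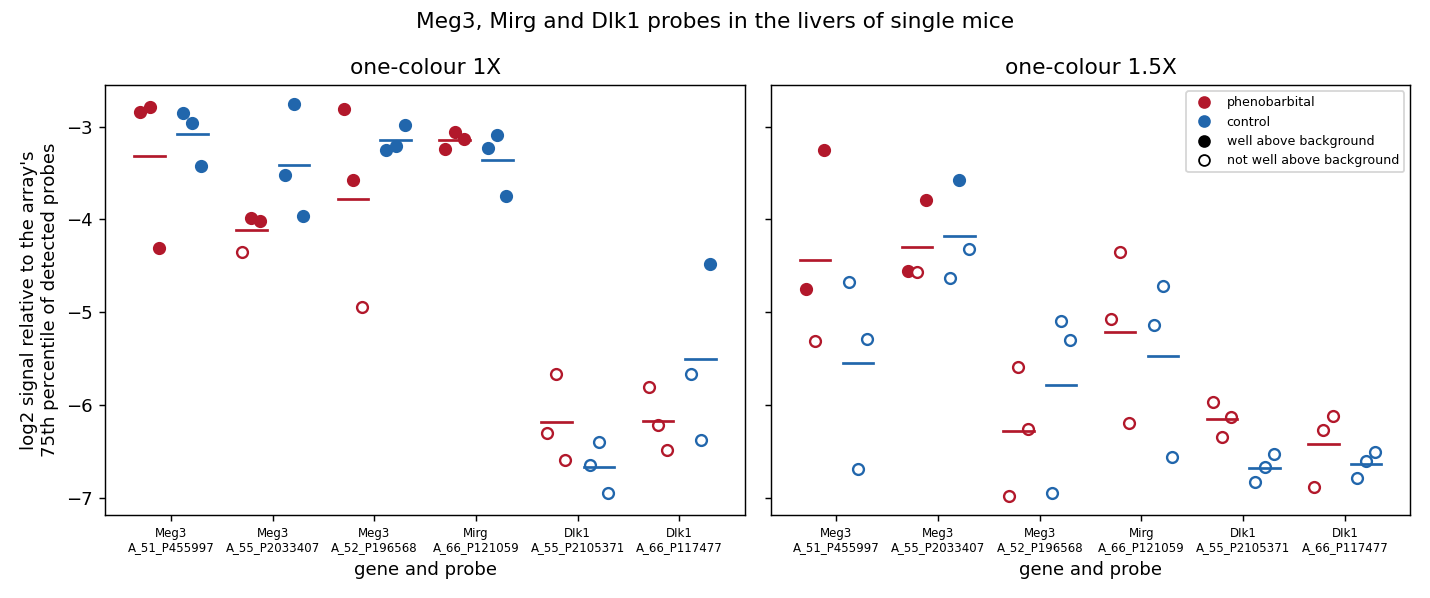
Log2 signal relative to the array's 75th percentile (vertical axis) for the 6 probes of Meg3, Mirg and Dlk1 in each mouse, phenobarbital left of control, at 1X (left panel) and 1.5X (right panel); horizontal lines are group means and open circles are spots not well above background. At 1X the Meg3 and Mirg points are mostly filled and the groups share their range except at probe A_55_P2033407, whereas at 1.5X most points are open.

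Mirg is the microRNA-containing gene at the far end of the noncoding transcripts. Its only probe, A_66_P121059, had 10.5, 12 and 11.4% of the 75th percentile in phenobarbital mice 1 to 3 at 1X and 10.7, 11.7 and 7.46% in control mice 1 to 3, all well above background. Only control mouse 3 stood apart, below the other 5. The log2 difference was 0.21 ± 0.23 (SE), with a 95% interval of -0.32 to 0.74 and a limma adjusted p of 0.867, which is 0.798 to 1.67 times the control level. Without control mouse 3 the log2 difference was 0.01. At 1.5X Mirg was not well above background on any array.

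Dlk1 was close to undetected. Probe A_55_P2105371 was well above background on none of the 12 one-colour arrays, and A_66_P117477 on 1, that of control mouse 3 at 1X, where it had 4.47% of the 75th percentile against 1.79, 1.35 and 1.12% in phenobarbital mice 1 to 3 and 1.97 and 1.20% in the other control mice. Neither probe was tested and no fold is given. Of the 5 fetal liver markers with a probe, Igf2 and Gpc3 were likewise well above background on no one-colour array, Cd24a and Peg3 on all 12, and Afp on 6 of 6 phenobarbital and 2 of 6 control arrays, and none of the 3 tested was called over both inputs.

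The 128 interval probes divide into 2 blocks separated by 577440 bases without a member interval. The block from 109603526 to 110075707 held 45 probes in 9 intervals, of which 22 (48.9%) were tested at 1X, and the block from 110653148 to 111080561 held 83 probes in 14 intervals, of which 31 (37.3%) were tested. The median log2 difference at 1X was 0.08 in the lower and -0.04 in the upper block. At 1.5X 8 probes of the lower and 3 of the upper block were tested. The forward interval chr12:110973190-110987668 of the upper block is 14479 bases long, close to the 14478 of Mirg in GRCm38. If it is Mirg, the lower block ends further before it than Dlk1 starts before Mirg in GRCm38. The lower block would then lie outside the domain between Dlk1 and Dio3, but builds were not converted. By name, 29 of 70 forward and 24 of 58 reverse probes were tested, with medians of 0.04 and 0.04. Probes of 1 interval share its name, but their positions within it are not given, and they are not replicates of it.

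The lowest of the 53 tested interval probes at 1X was A_30_P01026915, in the forward interval chr12:110967974-110969051. It had 1.85, 5.66 and 2.85% of the 75th percentile in phenobarbital mice 1 to 3, none well above background, and 6.24, 6.68 and 6.39% in control mice 1 to 3, all well above background. The groups did not overlap, and the control mice were at least 1.43-fold above the phenobarbital mice, for which only a bound was measured. The limma adjusted p was 0.482, and the probe was tested only through the control group. At 1.5X the probe was above background on no array, and the other 2 probes of this interval were not tested.

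The highest was probe A_30_P01028319, in the forward interval chr12:110769101-110771113. It had 10.1, 6.76 and 7.49% in phenobarbital mice 1 to 3, against 6.42, 2.39 and 4.17% in control mice 1 to 3 at 1X. It was well above background in all 3 phenobarbital mice and in control mice 1 and 3, and it passed the filter only through the phenobarbital group. The phenobarbital values all lay above the control values, by a small margin between phenobarbital mouse 2 and control mouse 1. The fitted difference, which takes in the undetected spot of control mouse 2, was 1.00 ± 0.36 (log2, SE), with a 95% interval of 0.16 to 1.84 and a limma adjusted p of 0.491. Without control mouse 2 it was 0.63. At 1.5X it was not well above background in any mouse, and the 3 tested probes of the same interval ran from -0.12 to 1.00 at 1X.

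At 1.5X 11 cluster probes were tested, all of them interval probes, and limma called none of them, against 0.245% of 16763 probes. Only 1 had an unadjusted p under 0.05 (2458 probes, 14.7%, over the array). This was A_30_P01020695 in the forward interval chr12:110842149-110845695, with 4.95, 9.12 and 9.25% in phenobarbital mice 1 to 3, all well above background, and 3.77, 4.58 and 3.69% in control mice 1 to 3, none well above background. All phenobarbital values exceeded all control values, and the group ratio was at least 1.69-fold, at a probe that passed the filter only through the phenobarbital group. It was the only one of the 11 whose groups did not overlap, against 20.6% of all probes tested. The limma adjusted p was 0.232.

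At 1X the same probe had 31.9, 29.1 and 30.1% in phenobarbital mice 1 to 3 and 29.4, 28.3 and 26.1% in control mice 1 to 3, and the groups overlapped. There its difference was 0.12 ± 0.18 (log2, SE). Over both inputs it was 0.51 ± 0.17, with a 95% interval of 0.12 to 0.90 and a limma adjusted p of 0.251, with the undetected control spots at 1.5X taken in at their values. The difference between inputs, taken within mice, had a limma adjusted p of 0.827. In the Cy3 channel of the two-colour 1.5X set it was 0.03 ± 0.11.

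**Figure D3:**
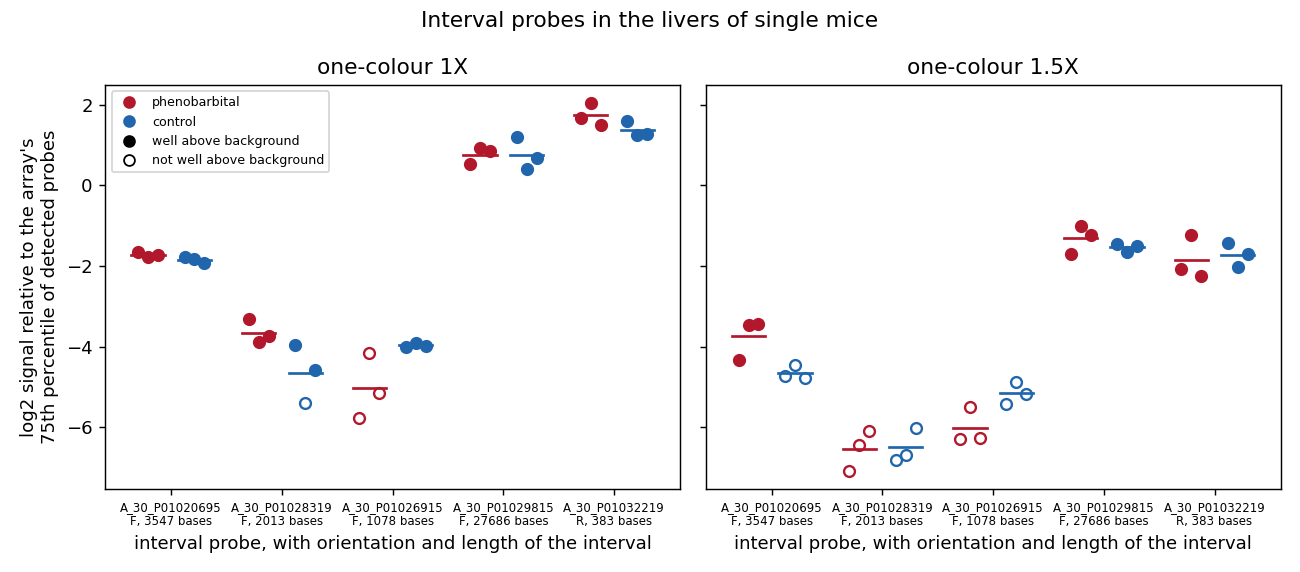
Log2 signal relative to the array's 75th percentile (vertical axis) for 5 interval probes in each mouse, phenobarbital left of control, at 1X (left) and 1.5X (right); lines are group means and open circles are spots not well above background. At A_30_P01020695 the phenobarbital points are filled and the control points open at 1.5X, while at 1X all 6 points lie together.

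Over both one-colour inputs, each mouse as the mean of its 2 arrays, 10 cluster probes were tested. All were interval probes, and none was called, against 0.73% of 16309 probes. Their median difference was 0.11 (log2), against -0.03 over all probes tested, and 1 had an unadjusted p under 0.05, A_30_P01020695 above, against 2196 probes or 13.5%. It was again the only one with groups that did not overlap, against 19% of all. The effect at 1.5X minus that at 1X was tested for the 10 interval probes tested in both sets. Limma called none of 16436 probes, with 938 at an unadjusted p under 0.05, among them 1 cluster probe, the one above. Input, slide and scan session cannot be told apart in that difference.

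A pair of interval probes was well above background on all 12 one-colour arrays and in nearly every channel of the two-colour 1X set. A_30_P01032219, in the reverse interval chr12:110002978-110003360, had 318, 410 and 282% of the 75th percentile in phenobarbital mice 1 to 3 and 300, 239 and 243% in control mice 1 to 3 at 1X. Control mouse 1 fell among the phenobarbital values, and the difference was 0.36 ± 0.22 (log2, SE), with a limma adjusted p of 0.724. At 1.5X its fitted difference was below 0. The effect at 1.5X minus that at 1X was -0.49 ± 0.22 (log2, SE), with a limma adjusted p of 0.844. A_30_P01029815, in the forward interval chr12:110003268-110030953, had 144, 190 and 179% in phenobarbital mice 1 to 3 and 228, 133 and 159% in control mice 1 to 3 at 1X. Its groups overlapped fully, and the difference was 0.01 ± 0.26 (log2, SE), with a limma adjusted p of 0.998.

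These were also the only cluster probes tested in the two-colour 1X set, where limma called neither, against 6.42% of 10046 probes. Both lie in the lower block. No probe of the upper block or of Meg3, Mirg or Dlk1 was tested in that set. A_30_P01029815 had normalized log2 intensities of 7.36, 7.28 and 7.45 in phenobarbital mice 1 to 3 and 7.13, 7.10 and 7.20 in control mice 1 to 3. The phenobarbital mice all lay above the control mice, in a set where the groups did not overlap at 32.6% of all probes tested. The difference was 0.22 ± 0.08 (log2, SE), with a 95% interval of 0.04 to 0.39, an unadjusted p of 0.021 and a limma adjusted p of 0.132. In the Cy3 channel alone A_30_P01029815 differed by 0.02 ± 0.13, with 7.36, 7.66 and 7.55 in phenobarbital mice 1 to 3 and 7.51, 7.41 and 7.61 in control mice 1 to 3, so the groups overlapped there. A_30_P01032219 differed by 0.17 ± 0.13 over both channels, with a limma adjusted p of 0.471. Set against the one-colour effect within mice, the differences of the effect were 0.11 ± 0.19 and 0.05 ± 0.20, neither called, against 0.0299% of 10044 probes.

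Meg3, Mirg and Dlk1 were well above background on none of the two-colour 1X arrays. In the two-colour 1.5X set the Cy5 channel was dim, with 2.98 to 7.43% of all probes well above background per array, and no cluster probe passed the filter over both channels, where limma called 0% of 1825 probes and 35 had an unadjusted p under 0.05. With the Cy3 channel alone, one of the alternatives, 39 cluster probes were tested there, among them the 3 Meg3 probes and Mirg. Limma called none, against 0.11% of 20088 probes, and 2 had an unadjusted p under 0.05, against 7.56% of all. One was A_30_P01033503, in the reverse interval chr12:111079867-111080561, and the other a Meg3 probe described below. A_30_P01033503 was higher with phenobarbital by 0.45 ± 0.16 (log2, SE), with an unadjusted limma p of 0.0199 and a limma adjusted p of 0.576. In Cy5 of that set its log2 intensities were 7.20, 8.94 and 8.78 in phenobarbital mice 1 to 3. Control mice 1 to 3 had 8.23, 6.85 and 10.8, so the groups overlapped. At one-colour 1X the 1 tested probe of this interval had a difference of -0.05 (log2). With Cy3 alone the groups did not overlap at 5 of the 39, 2 higher and 3 lower, against 12.9% of all probes tested in that channel.

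In that Cy3 channel the Meg3 probe A_52_P196568 had log2 intensities of 6.30, 6.26 and 6.06 in phenobarbital mice 1 to 3 and 6.42, 6.46 and 6.44 in control mice 1 to 3. All phenobarbital values lay below all control values, and the probe was well above background in this channel on 1 of 4 phenobarbital and 4 of 4 control arrays. It therefore passed the filter only through the control group. The fitted difference was -0.23 ± 0.09 (log2, SE), with an unadjusted p of 0.0266 and a limma adjusted p of 0.599. A_55_P2033407 was well above background on 0 of 4 phenobarbital and 4 of 4 control arrays and was at least 1.10-fold higher in control, with a limma adjusted p of 0.733. This probe too passed the filter only through the control group. A_51_P455997 differed by -0.03 ± 0.08, with a limma adjusted p of 0.933. Mirg differed by 0.01 ± 0.08 (log2, SE), with a limma adjusted p of 0.982. These arrays hold the same 6 livers as the one-colour sets, so the 2 formats are repeated measurements of the same mice.

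**Figure D4:**
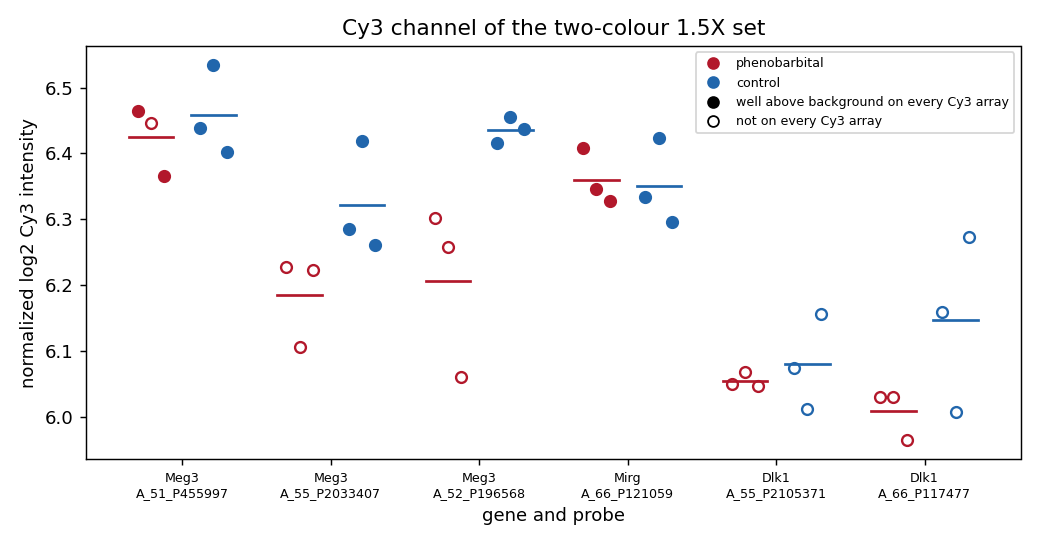
Normalized log2 Cy3 intensity (vertical axis) of the Meg3, Mirg and Dlk1 probes in the two-colour 1.5X set, by mouse, phenobarbital left of control; lines are group means, and filled circles mark mice whose spots were well above background on every Cy3 array. Control points lie above phenobarbital points at the Meg3 probes A_55_P2033407 and A_52_P196568, which passed the filter only through the control group. The groups overlap at A_51_P455997 and at Mirg.

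Detection of the cluster probes varied with the array set. At 1X 60, 59 and 64 of the 134 probes were well above background in phenobarbital mice 1 to 3 and 73, 55 and 72 in control mice 1 to 3 (exact permutation p = 0.4, two-sided, n = 3 each; the smallest p possible is 0.1). At 1.5X the counts were 28, 18 and 12 in phenobarbital mice 1 to 3 and 19, 16 and 13 in control mice 1 to 3 (exact permutation p = 0.7). Over the whole array 44.2 to 51.9% of probes were well above background per array at 1X and 28.1 to 38.6% at 1.5X. In the Cy3 channel of the two-colour 1.5X set 34, 38 and 54 were detected in phenobarbital mice 1 to 3 and 55, 45 and 50 in control mice 1 to 3 (exact permutation p = 0.3). In the Cy5 channel of the two-colour 1X set the counts were 2, 2 and 3 in phenobarbital mice and 8, 7 and 5 in control mice (exact permutation p = 0.1), while 14.8, 19.9 and 14.8% of all probes were detected there in phenobarbital mice and 20.5, 21.9 and 23.1% in control mice. In its Cy3 channel the counts were 17, 17 and 8 in phenobarbital mice and 7, 5 and 14 in control mice (exact permutation p = 0.2). The Cy5 channel of the two-colour 1.5X set detected at most 4 cluster probes in any mouse (exact permutation p = 0.7). Over these 6 comparisons the exact permutation p-values adjusted by Benjamini-Hochberg were 0.6 to 0.7.

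**Figure D5:**
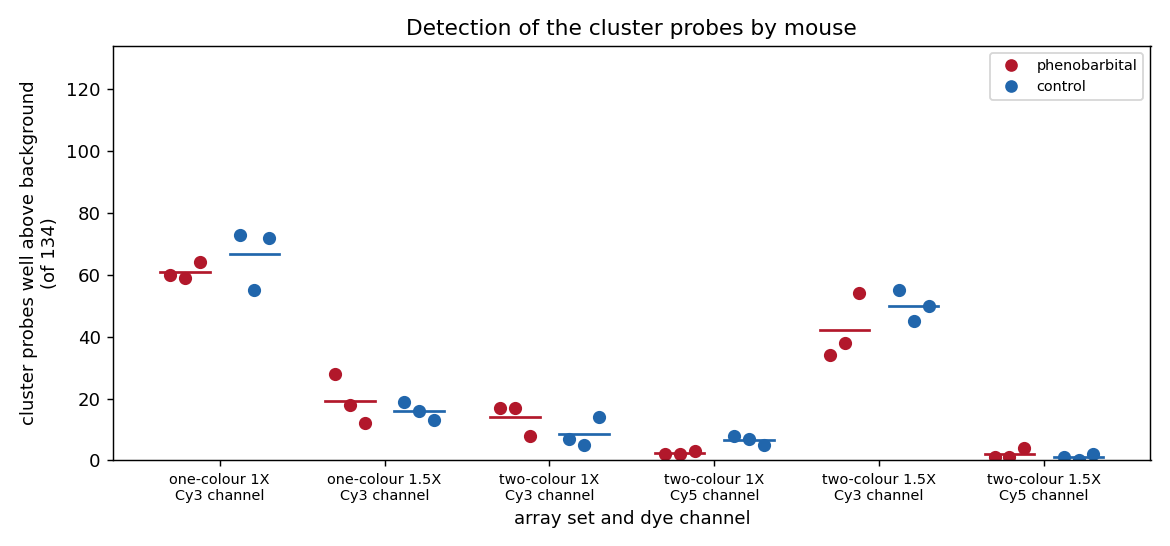
Number of the 134 cluster probes well above background (vertical axis) in each mouse by array set and dye channel, phenobarbital left of control; a mouse with several arrays in a channel counts a probe when all of them detect it, and lines are group means. The one-colour 1X arrays detect 55 to 73 probes, and the Cy3 channel of the two-colour 1.5X set, with 34 to 55, comes nearest.

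Of 18 genes listed as neighbours of the cluster, 9 were tested over both one-colour inputs and none was called, with a median difference of 0.18 (log2), against -0.03 over all probes. Inside the domain, Rtl1, an imprinted gene derived from a retrotransposon, was well above background on 0 of 6 phenobarbital and 2 of 6 control arrays, and Dio3, the deiodinase that inactivates thyroid hormone, on 3 of 6 arrays of either group. Cyp46a1, a cholesterol 24-hydroxylase further along the chromosome, had the smallest p of the list, with -1.11 ± 0.32 (log2, SE) and a limma adjusted p of 0.195. It passed the filter only through the control group, with 5 of 6 phenobarbital and 6 of 6 control arrays well above background. Evl, an actin regulator, had 0.38 ± 0.14, with an adjusted p of 0.315, and Ccnk and Dync1h1 had 0.20 each. In the two-colour 1X set Cyp46a1 fell by 0.49 ± 0.08 on the log2 scale (limma adjusted p of 0.0112), as 1 of the 6 neighbours tested. That call was lost with the mice named by the source names (adjusted p of 0.128), with the Cy3 channel alone, with the processed signals or log ratios, and without control mouse 3 (adjusted p of 0.0608).

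Of 48 imprinted genes elsewhere in the genome, 28 were tested over both inputs and none was called, with a median of -0.12 (log2). Peg3, a paternally expressed zinc-finger gene, had 0.87 ± 0.22 (log2, SE) and a limma adjusted p of 0.145, and Grb10, an adaptor of insulin signalling, -0.43 ± 0.19. Of 17 pericentral and beta-catenin targets, listed because the cluster's noncoding RNAs are known from pericentral hepatocytes, 12 were tested and none was called, with a median of -0.18. Glul, the glutamine synthetase of the cells around the central vein, had -0.61 ± 0.16 (log2, SE) and a limma adjusted p of 0.157, and Nkd1, a Wnt feedback inhibitor, -0.59 ± 0.16. Nkd1 passed the filter only through the control group, with 4 of 6 phenobarbital and 6 of 6 control arrays well above background. In the two-colour 1X set 9 of these 17 targets were tested, with 1 called higher and 1 lower, against 6.42% of all 10046 probes called. Cyp1a2 rose by 0.59 while Oat fell by 0.37 (log2), 2 genes named here after their values were seen. Of the 8 proliferation genes 5 were tested over both inputs. Limma called 3 higher, Cdc20 by 2.76, Birc5 by 1.82 and Mcm6 by 1.33 (log2), against 0.73% of all 16309 probes called. Cdc20 passed the filter only through the phenobarbital group, with 6 of 6 phenobarbital and 4 of 6 control arrays well above background. Its fit takes in the undetected control spots. In the two-colour 1X set 5 of the proliferation genes were tested and 5 called higher, against 6.42% of all probes.

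No probe of Meg3, Mirg or Dlk1 was well above background on all 12 one-colour arrays, which the rule for naming genes of like pattern required, so none are named.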

How the data were processed

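Per the file headers, Feature Extraction 11.0.1.1 (Agilent) made the scanner tables. Those deposited tables hold an intensity per spot (processed signal, background-subtracted, and raw medians), log10 ratios in the two-colour files, and spot flags of 0 or 1 (unit: other), among them the call of well above background. There is no count depth. Gene symbols came from RefSeq accessions matched to GRCm38.p6, which named 27235 of 55681 probes. The members, gene lists and alternatives were chosen with earlier results of these data known.

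One-colour values were log2 processed signals minus each array's 75th percentile over the probes that every array of the set detected well above background. Values of two-colour sets came from the median signals by normexp (offset 50), loess (span 0.3) and Aquantile, averaged over both dyes of a mouse. Spots flagged as outliers were left out. A probe was tested when well above background on all arrays or channels of at least 1 exposure group, with limma 3.58.1 in R 4.3.3, Benjamini-Hochberg adjustment over all probes tested and a threshold of 0.05. Bounds raised dim values to the lowest level called on that array. Arrays 4 and 8 of the two-colour 1X set were left out, since their description and channel labels assign the dyes oppositely, and on arrays 3, 5, 6 and 7 the mouse numbers of the description were used. All named members, and the 4 genes of each list with the smallest p over both one-colour inputs, could be named. The fits were tested on simulated data. Figures used matplotlib 3.10.9 in Python 3.11.15.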

Additional observations from a re-analysis of the deposited data

How the results depend on the processing

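No cluster probe was called under any alternative run, in any of the 5 comparisons of exposure or the 2 tests of a difference. The counts over the whole array, 34 at one-colour 1X, 41 at 1.5X, 119 over both inputs and 645 at two-colour 1X, became 5, 8 and 28 in the one-colour comparisons with no filter on dim probes and 56, 185 and 222 with normexp and quantile normalization. With the slide row as a block they were 9 and 16 at 1X and 1.5X. With the Cy3 channel alone 181 were called at two-colour 1X and 22 at two-colour 1.5X, against 0 there over both channels. With mice named by the source names the two-colour 1X count was 121, and 10 in place of 3 probes differed between formats. Leaving out each mouse in turn gave 4 to 18 at one-colour 1X, 7 to 143 at 1.5X, 11 to 153 over both inputs and 264 to 793 at two-colour 1X. The cause of these shifts was not tested.

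With the replicate number as a block the counts were 3, 3, 58 and 998. Mice share only that number: the correlations of same-numbered mice ran from -0.29 to 0.37, and not every pair in any set exceeded 0.1. With the flag for positive and significant spots, 122, 109, 118 and 127 of the 134 probes were detected on at least 1 array of the one-colour 1X, one-colour 1.5X, two-colour 1X and two-colour 1.5X sets, against 81, 35, 24 and 73 with the flag for well above background.

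Among the named probes the sign of the log2 difference turned for 3, with each mouse left out. Meg3 A_51_P455997 ran from -0.50 to 0.26 at 1X. The interval probe A_30_P01029815 ran from -0.17 to 0.22 at 1X and from -0.0053 to 0.27 over both inputs, and it was -0.020 at 1X with the percentile taken over all probes. The interval probe A_30_P01032219 ran from -0.44 to 0.062 at 1.5X and from -0.11 to 0.27 over both inputs. Many cluster probes were near background, and differences as large as the ends of the 95% intervals given were not excluded.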

Other observations

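On the 2 two-colour 1X arrays that the labels put in no group, none of the probes of Meg3, Mirg and Dlk1 was well above background in either channel, while 14 and 15 cluster probes were in Cy3 and 3 and 2 in Cy5, on arrays 4 and 8 in that order. Their deposited ratios of Cy5 over Cy3, turned into log2, were 3.68 and -2.76 for Cyp2b10, 3.77 and -3.77 for Cyp2c55 and 2.15 and -1.40 for Por.

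The Dlk1 probe A_55_P2105371, below the call of well above background on every one-colour array, had 1.59, 1.23 and 1.43% of the 75th percentile in phenobarbital mice 1 to 3 at 1.5X and 0.879, 0.980 and 1.09% in control mice 1 to 3. At 1X it had 1.26, 1.98 and 1.04% in phenobarbital mice 1 to 3 and 0.996, 1.19 and 0.810% in control mice 1 to 3, and the groups overlapped. The values at 1.5X did not overlap, but they are undetected spots of a probe that was not tested. In that set the groups did not overlap at 20.6% of all probes tested, a share over probes that passed the detection filter, unlike this one.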
